A study of Mus musculus with 3 samples.

Results

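Thrombomodulin and 8 other genes of blood clotting and clot removal were examined by RNA sequencing (RNAseq) in cultured adult ventricular cardiomyocytes (ACMs) treated with vehicle, IL-6 or OSM. The genes were chosen by symbol for their role, and all 9 were found among the 56748 genes of the count table: Thbd (thrombomodulin), Procr (the endothelial protein C receptor), F3 (tissue factor), Tfpi (tissue factor pathway inhibitor), F2r (the thrombin receptor PAR-1), Plat and Plau (the tissue-type and urokinase-type plasminogen activators), Plaur (the urokinase receptor) and Serpine2 (protease nexin-1). ACMs of every group were ventricular myocytes of WT mice aged 8 to 10 weeks, carried no deletion or transgene, and were plated on laminin and kept in serum-free medium containing BSA and the contraction inhibitor BDM. They received mouse OSM at 10 ng/mL, human IL-6 at 10 ng/mL, or vehicle, which was 0.1% BSA, for 16 h. RNA samples were pooled before sequencing, so that each condition is 1 library (n = 1). No difference between these libraries has a replicate check within the sequencing data, and no p-value can be given.

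Clotting begins when tissue factor meets factor VII of the blood and ends with thrombin, which cleaves fibrinogen and signals to cells through PAR-1. Thrombomodulin on the cell surface binds thrombin and turns it toward activating protein C, which the protein C receptor holds in place, and activated protein C with its cofactor protein S then shuts down the cascade, whereas tissue factor pathway inhibitor blocks its first step. Clots are dissolved by plasmin, which both plasminogen activators make from plasminogen, the urokinase type mostly while held by its receptor. Thrombomodulin and the protein C receptor are best known from endothelium, and OSM and IL-6 both signal through receptors that contain gp130.

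Libraries held 24939980 counts with vehicle, 26362446 with IL-6 and 30773001 with OSM. Fold changes were taken between libraries from counts scaled by TMM (trimmed mean of M-values), each with a 95% interval for counting error only. A gene was compared when it had at least 10 counts over the pair, and was called higher or lower when its whole interval lay beyond 2-fold. Levels are given as the deposited fpkm, that is per length of the gene model. That length differs unevenly from the canonical transcript, being 5463 against 2143 bases for Tfpi, 3336 against 4447 for F2r and 3723 in both for Thbd. Ratios, shares and orders of levels between genes depend on the length used, and their intervals do not cover that choice.

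All 9 genes had enough counts to be compared in every pair of libraries. With OSM against vehicle 2 of the 9 were called higher, Thbd and Procr, and 0 lower, where 3.74% of all compared genes were called higher and 5.43% lower. With IL-6 against vehicle 0 were called higher and 1 lower, Plau, beside 1.77% higher and 1.74% lower among all compared genes. Against IL-6, OSM gave 4 higher (Thbd, Procr, Plau and Plaur) and 0 lower, beside 4.24% and 5.42%. An interval that merely left out no change was much more common. It was found for 4 of the 9 genes with OSM against vehicle (66.4% of all compared genes), for 3 with IL-6 against vehicle (38.7%) and for 8 with OSM against IL-6 (66.4%). The median log2 fold change of the 9 genes was 0.12 with OSM against vehicle, -0.08 with IL-6 against vehicle and 1.44 with OSM against IL-6, with Plau at its bound, beside 0.0046, -0.0021 and 0.0029 over all compared genes. Both OSM comparisons share the OSM library and both vehicle comparisons share the vehicle library, so the pairs are not independent of each other.

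**Figure D1:**
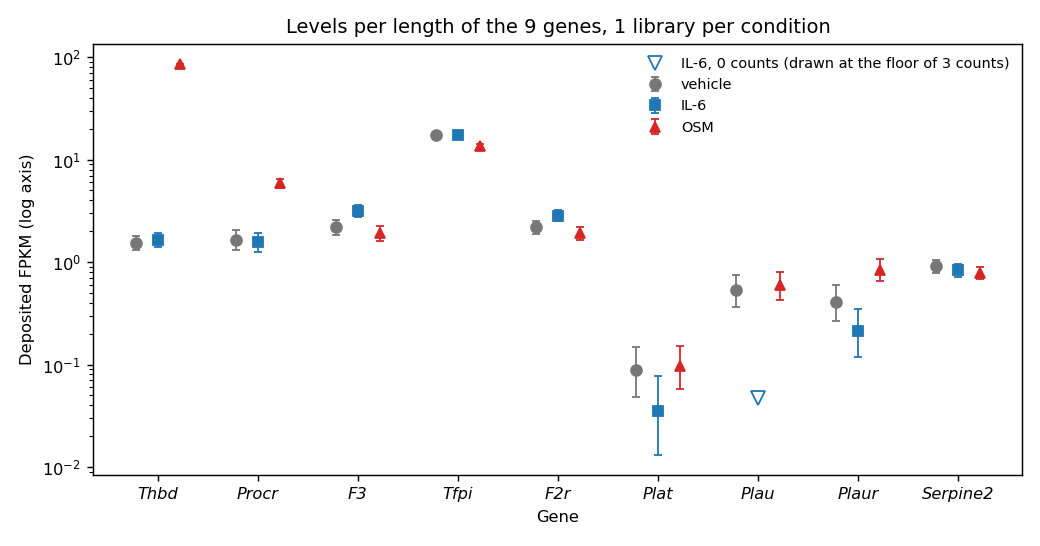
Level of each of the 9 genes in the vehicle, IL-6 and OSM libraries, as deposited fpkm on a log axis. Points are single libraries, bars are 95% intervals of the count, and the open triangle is Plau with IL-6, listed at 0 counts. Thbd, Procr and Plaur with OSM stand above their other libraries, whereas vehicle and OSM lie close together for the other 6 genes.

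Thbd (ENSMUSG00000074743) lies on the minus strand of chromosome 2 (GRCm39, 148246386 to 148250108), and its canonical transcript has 1 exon. It had 145 counts with vehicle, 165 with IL-6 and 9450 with OSM. The OSM library stood far above both others, which lay within each other's counting error. The difference between OSM and vehicle was 55.1-fold (46.8 to 65.4), and that between OSM and IL-6 was 51.9-fold (44.5 to 60.9). IL-6 against vehicle gave a log2 fold change of 0.09 (-0.24 to 0.42). In these bulk libraries, more RNA per cell and more cells of a type that expresses a gene cannot be told apart.

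Larger ratios than that of Thbd occurred, nearly all of them at low counts with vehicle. A total of 195 genes had a larger log2 fold change or lower bound than Thbd with OSM against vehicle, but only 1 of them had 10 or more counts with vehicle. None of the 195 had more counts with OSM than Thbd, the highest among them being 2849. By fpkm, Thbd ranked 8413 with vehicle, 8257 with IL-6 and 571 with OSM among protein-coding genes, of which 13733, 13706 and 13799 had counts in these libraries.

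**Figure D2:**
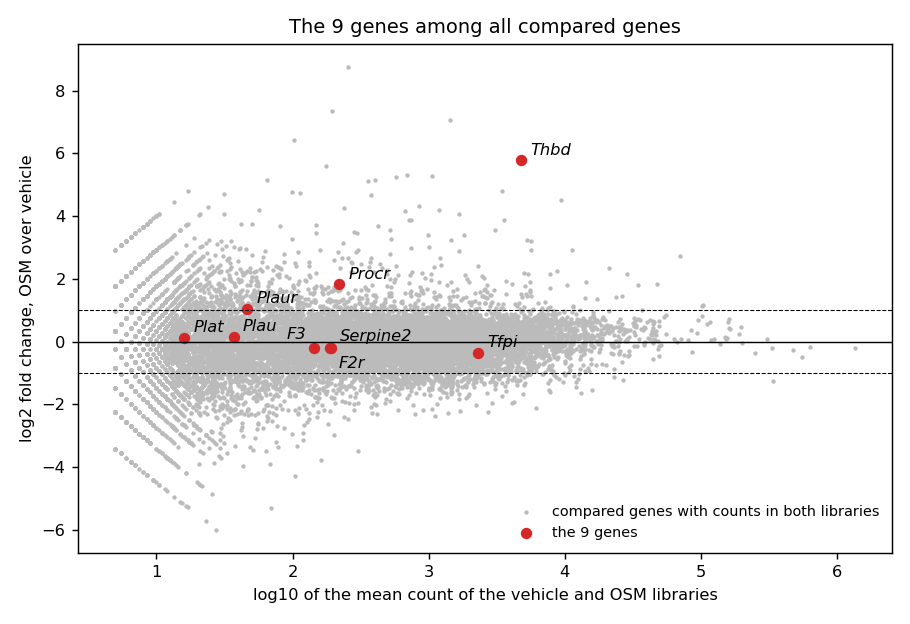
Log2 fold change of OSM over vehicle against the log10 mean count of both libraries for all compared genes with counts in both (grey) and the 9 genes (red); dashed lines mark 2-fold. Thbd lies at 5.78 apart from other genes of similar count, Procr at 1.82 and Plaur at 1.05, and the other 6 genes lie between -0.36 and 0.15.

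Procr (ENSMUSG00000027611), whose product presents protein C to the thrombin and thrombomodulin complex, lies on the plus strand of the same chromosome (155593037 to 155597391, 4 exons). It had 85 counts with vehicle, 86 with IL-6 and 355 with OSM. As with Thbd, both other libraries were alike and OSM was higher, by 3.53-fold against vehicle (2.78 to 4.53) and by 3.74-fold against IL-6 (2.95 to 4.79). Both calls of Procr were lost when the whole interval had to lie beyond 4-fold and when a biological coefficient of variation (BCV) of 0.4 was assumed, while Thbd was called under both. The log2 fold change of Thbd exceeded that of Procr by 3.96 (3.55 to 4.38) against vehicle. Per length, the level of Thbd was 0.931 times that of Procr with vehicle (0.707 to 1.23) and 14.5 times with OSM (13.1 to 16.2).

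Plaur (ENSMUSG00000046223, chromosome 7, 24161909 to 24175393, 7 exons) anchors urokinase at the cell surface. It had 27 counts with vehicle, 15 with IL-6 and 66 with OSM, so that OSM was the highest and IL-6 the lowest library. OSM against vehicle gave a log2 fold change of 1.05 (0.38 to 1.75), beyond counting error but with an interval that reached below 2-fold, and Plaur was not called in this pair. Against IL-6 it was called higher, by 3.99-fold (2.25 to 7.53), a call that was lost when the trend of fold change on gene length was removed, beyond 4-fold and with the assumed BCV of 0.4. IL-6 against vehicle gave -0.95 (-1.96 to 0.01).

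The 250 bases before the start of the canonical transcript were searched in all 9 genes and are shown for Thbd, Procr and Plaur, the genes whose OSM library stood highest beyond counting error against vehicle. They were read from GRCm39, 5′ to 3′ on the strand of the gene, at chr2:148250202-148250358 (Thbd, minus), chr2:155592781-155593030 (Procr, plus) and chr7:24161625-24161874 (Plaur, plus). For Thbd the last 93 bases are left out, because another annotated transcript of the gene begins there. Capitals mark matches on either strand to the AP-1 consensus TGANTCA or to the C/EBP core TTGCNNAA, and the STAT consensus TTCNNNGAA, also searched on both strands, had no match.
Thbd: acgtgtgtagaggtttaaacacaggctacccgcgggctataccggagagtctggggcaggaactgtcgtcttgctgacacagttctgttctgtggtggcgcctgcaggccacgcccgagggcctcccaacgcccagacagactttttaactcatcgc
Procr: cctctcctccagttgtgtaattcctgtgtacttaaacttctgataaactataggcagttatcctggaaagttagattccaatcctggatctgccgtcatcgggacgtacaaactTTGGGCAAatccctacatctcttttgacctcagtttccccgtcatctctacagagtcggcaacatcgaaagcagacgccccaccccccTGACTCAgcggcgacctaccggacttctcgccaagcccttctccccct
Plaur: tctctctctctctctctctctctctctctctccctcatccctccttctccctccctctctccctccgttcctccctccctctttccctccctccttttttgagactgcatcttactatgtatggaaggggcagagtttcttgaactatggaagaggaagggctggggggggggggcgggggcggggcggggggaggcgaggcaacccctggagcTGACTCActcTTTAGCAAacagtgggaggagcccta

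All 250 bases of Thbd held no match to any of these motifs, and their GC content was 60.8%, against 51.2% for Procr, 59.2% for Plaur and 70% for F3. Procr and Plaur both held the AP-1 letters TGACTCA, with the first base at position -48 in Procr and -36 in Plaur, where -1 is the base before the start. Each also held a C/EBP core match, at -136 in Procr and -26 in Plaur. F3, which is not shown, held AP-1 matches at -146 and -135 and did not differ beyond counting error between OSM and vehicle. In windows of 300 bases, which add the first 50 of the transcript, AP-1 matches were found in 4 of the 9 genes, the fourth being F2r, where the match ran across the start, and in 7.15% of 21757 promoters. C/EBP core matches were found in 2 of 9 and in 10.7% of promoters, and STAT matches in 0 of 9 and in 8.82%. These are matches of letters and were not tested as binding sites.

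F3 (ENSMUSG00000028128, chromosome 3, 121517186 to 121528697, 6 exons) encodes the trigger of clotting and had 141 counts with vehicle, 215 with IL-6 and 145 with OSM. IL-6 was the highest of its libraries, while vehicle and OSM did not differ beyond counting error (log2 fold change -0.20, -0.55 to 0.14). The log2 fold change with IL-6 against vehicle was 0.51 (0.20 to 0.83), within 2-fold and not called. OSM against IL-6 gave -0.71 (-1.02 to -0.40), also not called.

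F2r (ENSMUSG00000048376, chromosome 13, 95738311 to 95754995, 2 exons) had the same order of libraries, with 186 counts with vehicle, 256 with IL-6 and 190 with OSM. Its log2 fold change was 0.36 (0.08 to 0.64) with IL-6 against vehicle, -0.21 (-0.51 to 0.09) with OSM against vehicle and -0.57 (-0.85 to -0.30) with OSM against IL-6. Neither gene was called in any pair, and F3 and F2r were the members whose interval left out no change in the higher direction with IL-6.

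Tfpi (ENSMUSG00000027082, chromosome 2, 84263199 to 84307119, 9 exons) was by count the most abundant of the 9 genes with vehicle and IL-6. It had 2401 counts with vehicle, 2572 with IL-6 and 2217 with OSM. After scaling, IL-6 and vehicle were alike (log2 fold change -0.00050, -0.08 to 0.08), and the OSM library was lower by 1.28-fold against vehicle (1.21 to 1.36), beyond counting error and within 2-fold. The level of this inhibitor exceeded that of tissue factor in each library, by 7.88 times with vehicle (6.64 to 9.40), 5.53 times with IL-6 (4.81 to 6.39) and 7.07 times with OSM (5.98 to 8.43) in fpkm. These ratios rest on the deposited gene lengths, 5463 bases for Tfpi and 2527 for F3, beside canonical transcripts of 2143 and 1995. The log2 fold change of F3 with IL-6 exceeded that of Tfpi by 0.51 (0.19 to 0.83).

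Plau (ENSMUSG00000021822, chromosome 14, 20886728 to 20893453, 11 exons) had 32 counts with vehicle, 0 with IL-6 and 42 with OSM. Vehicle and OSM lay within each other's counting error, with a log2 fold change of 0.15 (-0.55 to 0.86), and only the IL-6 library stood apart. Against a floor of 3 counts per library, Plau was at least 11.4-fold lower with IL-6 than with vehicle and at least 12.7-fold higher with OSM than with IL-6. The counting intervals, which also cover the error of the vehicle and OSM counts, reached down to 8.77-fold and 9.88-fold. Among all genes, Plau was the only one with 0 counts with IL-6 and at least 30 in each of the other libraries. For OSM 3 genes had this pattern (A930002C04Rik, Cadps and Gm15328, named after their values were seen), and 0 genes had it with vehicle. That Plau stood alone depended on the limit of 30. With a limit of 15, 7 genes had 0 counts with IL-6, 22 with OSM and 6 with vehicle. Both calls of Plau were lost with a minimum of 50 counts over the pair, and that against vehicle also with an assumed BCV of 0.4.

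Plat (ENSMUSG00000031538, chromosome 8, 23247743 to 23272860, 14 exons) was near the limit of detection, with 14 counts with vehicle, 6 with IL-6 and 18 with OSM. Its intervals were wide, the log2 fold change being 0.12 (-0.97 to 1.24) with OSM against vehicle and -1.32 (-2.99 to 0.15) with IL-6 against vehicle, so that changes of 2-fold were not detectable at this depth. OSM against IL-6 gave 1.44 (0.05 to 3.07), beyond counting error and not called.

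Serpine2 (ENSMUSG00000026249, chromosome 1, 79771914 to 79838897, 9 exons), an inhibitor of thrombin and of urokinase, had 191 counts with vehicle, 186 with IL-6 and 194 with OSM. No pair differed beyond counting error. The log2 fold change was -0.22 (-0.51 to 0.08) with OSM against vehicle, -0.14 (-0.44 to 0.16) with IL-6 against vehicle and -0.08 (-0.38 to 0.22) with OSM against IL-6.

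**Figure D3:**
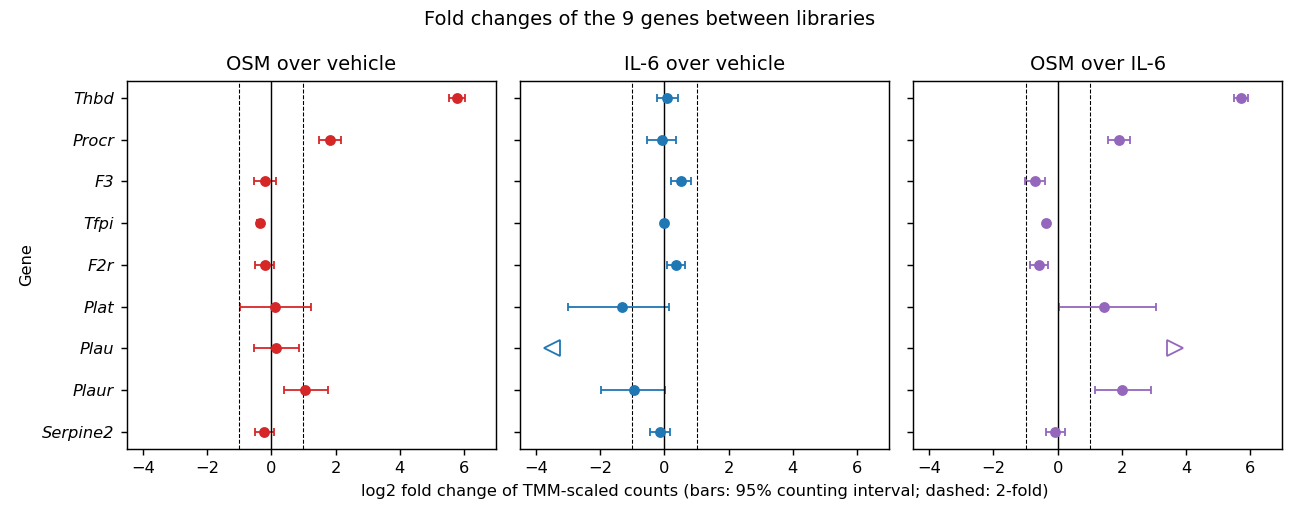
Log2 fold change of the TMM-scaled counts of the 9 genes in each pair of libraries, with 95% counting intervals; dashed lines mark 2-fold and open triangles are bounds for Plau, which had 0 counts with IL-6. Thbd lies at 5.78 and 5.70 in the OSM pairs and at 0.09 with IL-6 against vehicle, where Plau is the one gene whose whole interval lies beyond 2-fold.

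Levels per length placed the inhibitor Tfpi first with vehicle and IL-6, at 17.4 fpkm in each, and Thbd first with OSM, at 85.0 fpkm. The order rests on the deposited gene lengths, which for Serpine2 and Plat are 8287 and 6241 bases beside canonical transcripts of 2210 and 2590. Whether intervals overlap takes no account of this choice of length. With vehicle, Tfpi was followed by F3 (2.21 fpkm), F2r just below it, Procr (1.65) and Thbd (1.54), a run in which the intervals of neighbours overlapped, then by Serpine2 (0.911), Plau (0.534), Plaur (0.408) and Plat (0.0887), where those of Plau and Plaur overlapped. With IL-6 the order of the first 5 was Tfpi, F3 (3.14), F2r (2.83), Thbd (1.64) and Procr (1.56), where the intervals of F3 and F2r overlapped, as did those of Thbd and Procr. With OSM, Thbd was followed by Tfpi (13.6) and Procr (5.85), each apart from its neighbours, then by F3 (1.92) and F2r (1.91), whose intervals overlapped, and by Plaur (0.844), Serpine2 (0.784) and Plau (0.594), each overlapping the next, with Plat last (0.0966).

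The summed level of the 9 genes was 26.9 fpkm with vehicle, 27.6 with IL-6 and 111 with OSM. Thbd made up 5.72% of that sum with vehicle, 5.92% with IL-6 and 76.9% with OSM, and the share of Tfpi went from 64.5% with vehicle to 12.3% with OSM. Thbd stood at 0.0886 times the level of Tfpi with vehicle (0.0744 to 0.105) and at 6.25 times with OSM (5.97 to 6.55). Against F3, the trigger of the cascade that thrombomodulin restrains, Thbd went from 0.698 times with vehicle (0.550 to 0.886) and 0.521 times with IL-6 (0.423 to 0.641) to 44.2 times with OSM (37.5 to 52.5).

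A further 48 genes of coagulation and fibrinolysis were read from the same fits, and all were in the table. The clotting factors, most of which are known as products of the liver, had no or few counts. A total of 16 of the 48 were at 0 in every library, among them F5, F7, F9, F11, the fibrinogen genes Fga, Fgb and Fgg, and Proc, which encodes protein C itself. Plg, encoding plasminogen, had 0 counts with vehicle, 4 with IL-6 and 0 with OSM, and F2, encoding prothrombin, had 0, 2 and 0. A total of 20 genes were compared with OSM against vehicle, of which 3 were called higher and 1 lower (median 0.37; 3.74% and 5.43% of all compared genes), 18 with IL-6 against vehicle, of which 0 were higher and 1 lower (median -0.04; 1.77% and 1.74%), and 19 with OSM against IL-6, of which 4 were higher and 1 lower (median 0.27; 4.24% and 5.42%).

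Pros1, which encodes protein S, the cofactor of activated protein C, had 27 counts with vehicle, 33 with IL-6 and 182 with OSM. It was higher with OSM by 5.70-fold against vehicle (3.79 to 8.89) and by 5.00-fold against IL-6 (3.44 to 7.48), and vehicle and IL-6 did not differ beyond counting error. Both calls were lost beyond 4-fold and with the assumed BCV of 0.4. The level of Pros1 was low, at 0.261 fpkm with vehicle, 0.298 with IL-6 and 1.49 with OSM.

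Anxa2 and S100a10 encode both parts of a complex that binds plasminogen and tissue-type plasminogen activator at the cell surface, and they were the other genes called higher with OSM against vehicle. Anxa2 had 395 counts with vehicle, 334 with IL-6 and 6813 with OSM, 14.6-fold against vehicle (13.2 to 16.2). S100a10 had 82, 63 and 1412 counts in the same order, also 14.6-fold (11.7 to 18.4). Both stayed below Thbd in level with OSM, Anxa2 being the higher at 61.1 fpkm.

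Serpini1, encoding neuroserpin, an inhibitor of tissue-type plasminogen activator, had 32 counts with vehicle, 0 with IL-6 and 18 with OSM. Against the floor of 3 counts it was at least 11.4-fold lower with IL-6 than with vehicle and at least 5.44-fold higher with OSM than with IL-6, where the counting intervals reached down to 8.77-fold and 3.99-fold. Both calls were lost with a minimum of 50 counts and with the assumed BCV of 0.4, and that against IL-6 also beyond 4-fold. With OSM against vehicle its log2 fold change was -1.07 (-1.99 to -0.20), not called. F8, which encodes factor VIII, had 60 counts with vehicle, 69 with IL-6 and 18 with OSM and was lower with OSM by 3.94-fold against vehicle and 4.23-fold against IL-6. Neither F8 call remained beyond 4-fold, with the assumed BCV of 0.4 or once the trend on gene length was taken out, the deposited gene length of F8 being 9905 bases.

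The other genes of the list that reached 10 fpkm were not called in any pair. Gas6, a relative of protein S that binds TAM receptors, had 1429 counts with vehicle, 1472 with IL-6 and 2394 with OSM, with a log2 fold change of 0.50 (0.41 to 0.60) with OSM against vehicle. Anxa5, which binds phosphatidylserine, had 1228, 1246 and 1932 counts in that order and a log2 fold change of 0.41 (0.31 to 0.52). Mcfd2 and Lman1, the cargo receptor for factors V and VIII, gave 0.22 (0.16 to 0.28) and -0.21 (-0.26 to -0.16), and Vkorc1l1, of the vitamin K cycle, gave -0.46 (-0.57 to -0.35).

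**Figure D4:**
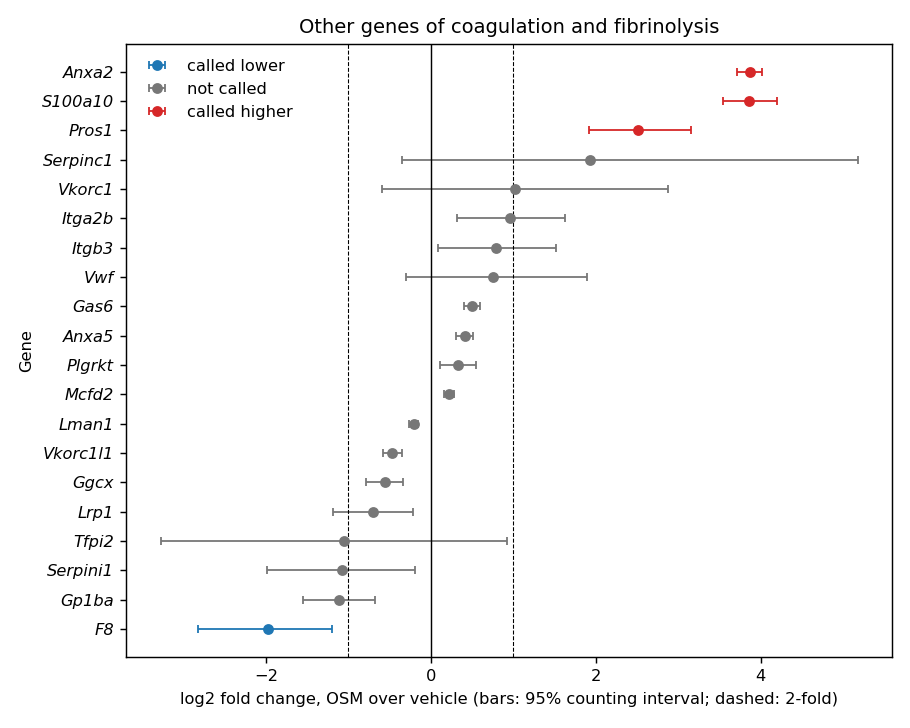
Log2 fold change of OSM over vehicle for the 20 compared genes of the wider coagulation and fibrinolysis list, with 95% counting intervals and dashed lines at 2-fold. Anxa2, S100a10 and Pros1 lie wholly above 2-fold and F8 wholly below, and the wide bars belong to genes of few counts such as Serpinc1 and Tfpi2.

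Candidates for likeness to Thbd were 11671 genes with counts in every library and at least 100 counts in all. From these, the genes closest to Thbd over its log2 fold changes with OSM and with IL-6 against vehicle were taken. They were Inhbb (the inhibin beta-B subunit; 29 counts with vehicle, 34 with IL-6 and 1349 with OSM), Sec1 (a fucosyltransferase gene; 19, 24 and 794), Serpina3n (a serine protease inhibitor; 45, 90 and 2059), Timp1 (a metalloproteinase inhibitor; 203, 178 and 6739) and Cd24a (a surface glycoprotein; 17, 36 and 703). Their distances from Thbd ran from 0.49 to 1.11 in log2 units over 3 libraries, and none of the 5 belongs to the coagulation lists. Apart from Timp1, all had fewer counts with vehicle than Thbd.

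Cell type markers were summed as lists to set beside these genes. Cardiomyocyte markers were present in full, with 8 of 8 above 0 in each library and a summed level of 5821 fpkm with vehicle, 5904 with IL-6 and 7998 with OSM. Of them, 2 were called lower with OSM, Ttn and Ryr2, the genes of long transcripts, named after their values were seen. The endothelial list, which holds 10 markers, summed to 9.73 fpkm with vehicle, 9.74 with IL-6 and 11.6 with OSM. Of its 10 markers 0 were called with OSM against vehicle or in the other pairs. Its summed counts differed by 1.17-fold between OSM and vehicle, beside 55.1-fold for Thbd and 3.53-fold for Procr. The part of endothelial or other cells in the levels of both genes was not tested.

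Of the macrophage list, Cd68 was higher with OSM. The summed level of the list was 13.8 fpkm with vehicle, 14.4 with IL-6 and 39.9 with OSM, with 2.39-fold more counts with OSM than with vehicle. With OSM against vehicle 5 of its 8 markers were compared and 1 was called higher, Cd68 with 382, 448 and 1419 counts (named after its values were seen). With OSM against IL-6, 4 were compared and 2 were called higher, and the summed counts differed by 2.40-fold. Without Cd68, left out after seeing the data, the other 7 markers summed to 210, 184 and 254 counts, 1.02-fold between OSM and vehicle. Of the list, Ptprc, C1qa and Cd163 were at 0 in every library. The part of these markers in the levels of Thbd, Procr and Plaur was not tested.

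The smooth muscle and pericyte list summed to 33.1 fpkm with vehicle, 35.6 with IL-6 and 23.3 with OSM, and its counts with OSM were 0.520 times those with vehicle. It had 1 marker called lower with OSM, Abcc9 with 4210, 5145 and 2004 counts (named after its values were seen). Without Abcc9 the summed counts were 800, 828 and 1077, 1.14-fold between OSM and vehicle. The last 3 lists are given with vehicle, IL-6 and OSM in that order. The fibroblast list summed to 0.860, 0.770 and 1.08 fpkm (1.18-fold in counts with OSM against vehicle, 0 called in that pair). Of its 8 markers, 0, 1 and 3 had no counts. The mesothelial list summed to 0.915, 1.28 and 0.994 with Muc16 at 0 (1.17-fold in the same pair, 1 called lower, Krt19). The platelet list summed to 0.546, 0.367 and 0.609 with 6 of 8 markers at 0 (1.72-fold, 0 called). With OSM against IL-6, 1 fibroblast and 1 mesothelial marker were called lower, and 1 smooth muscle marker higher and 1 lower. With IL-6 against vehicle, 1 mesothelial marker was called higher, and the summed counts of that list differed by 1.67-fold.

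**Figure D5:**
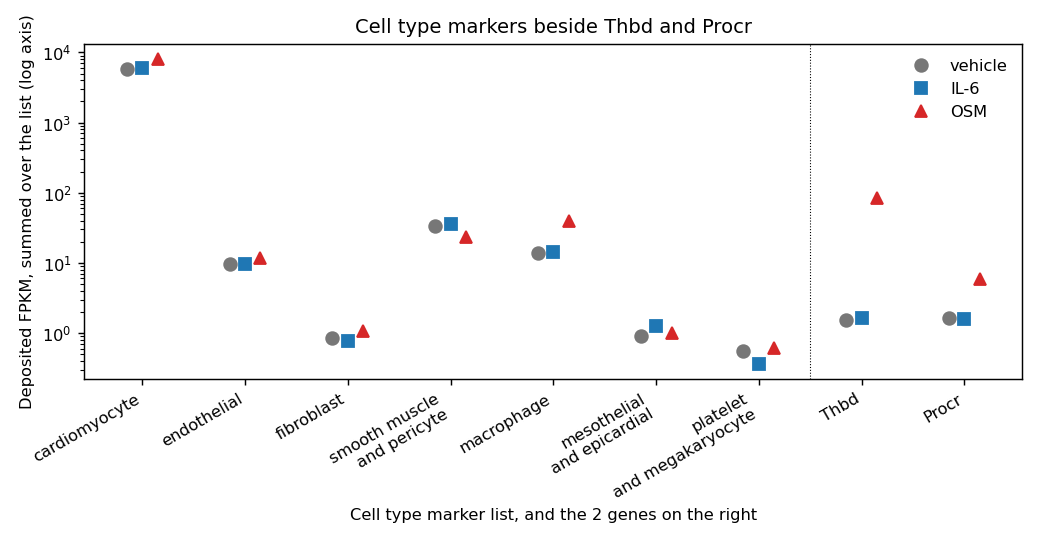
Summed fpkm of 7 marker lists in the vehicle, IL-6 and OSM libraries on a log axis, with Thbd and Procr at the right. The endothelial list stays between 9.73 and 11.6 fpkm and the macrophage list goes from 13.8 to 39.9, while Thbd goes from 1.54 to 85.0 between vehicle and OSM.

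By the deposited coordinates, no gene of the deposited table overlaps any of the 9 genes. In GENCODE M39, lncRNA genes that are not in the deposited table lie on the opposite strand of F3 (Gm64338) and Plau (Gm63115). The sources used here do not give a strand setting for the counting, so that reads from shared stretches cannot be assigned to F3 and Plau or to these lncRNA genes. In stretches of at least 100 bases at 97% identity or more, 9.72% of the canonical F3 transcript matched Gm64338. For Plau, 16.7% matched Gm63115. For the other 7 genes, no stretch of 100 bases or more of the canonical transcript matched another transcript at 97% identity.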

How the data were processed

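RNA of ACMs was isolated with Trizol, pooled and sequenced from poly-A libraries as paired reads. Per the labels, the tools included fastp, HISAT2 2.2.1, featureCounts 2.0.6 and edgeR 4.0.16, with genome build mm39. The deposited counts per gene are raw whole numbers, and the deposited FPKM values, made by the authors, are each the count divided by gene length and by 1 constant per library. All value columns were matched to samples. A printed fpkm of a list is the sum of deposited FPKM values.

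Counts of each pair of libraries were scaled by TMM over all genes (edgeR 4.0.16 in R 4.3.3), and log2 ratios were given 95% Clopper-Pearson intervals of both counts given their sum. Levels carry exact Poisson intervals. Both cover counting error only, and the difference of 2 log2 ratios has a normal interval from the counting errors. Genes at 0 were set against a floor of 3 counts per library, 0.120 CPM with vehicle, 0.114 with IL-6 and 0.0975 with OSM. With 1 library per condition no test across replicates was possible. The script was tested on simulated data.

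Named were all 9 genes, genes of the wider list called in any pair or at 10 fpkm or more in any library, and the 5 genes nearest to Thbd. A gene of the wider list is not reported here. The members and lists were chosen with earlier results of these data known. Promoters and exon numbers, both of the canonical transcript, came from GRCm39 with GENCODE M39, in which 56017 of 56748 gene identifiers were found. Gene coordinates came from the deposited table. Other scalings (including DESeq2 1.42.0), count minimums, calling rules, thinning and removal of the trend on gene length were tried.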

Additional observations from a re-analysis of the deposited data

How the results depend on the processing

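Over 7 alternatives each, the 27 log2 fold changes of the 9 genes gave 189 values, of which 187 stayed within the counting interval, 2 moved and 0 called values changed sign. The 2 were those of Plau, which became -2.99 with IL-6 against vehicle and 3.09 with OSM against IL-6 when 5 counts were added to each library. Thbd with OSM against vehicle ranged from 5.68 to 5.80, Procr from 1.49 to 1.83 and Plaur from 0.81 to 1.06, the lowest each time with the trend on gene length removed. Serpine2 and Plau, not called in that pair, changed sign with this trend removed, to 0.07 and -0.12.

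Of 156 alternative counts of called genes, 134 stayed within 1.5 times the reported count. With the whole interval beyond 4-fold, members called higher became 1 of 2 with OSM against vehicle and 2 of 4 with OSM against IL-6, while the wider list had 2 higher and 0 lower with OSM against IL-6 and 0 lower with OSM against vehicle. An edgeR exact test with an assumed BCV of 0.4 gave those same counts, with Thbd, Plau, Anxa2 and S100a10 the genes still called higher in either OSM pair under both settings, and 0 lower with IL-6 against vehicle in both lists. A minimum of 50 counts also gave 0 lower with IL-6 in both lists. With point estimates alone, the wider list had 5 higher and 4 lower with OSM against vehicle and 7 higher with OSM against IL-6, and 2 members were lower with IL-6. The wider list had 2 lower with OSM against vehicle with no minimum count and with the interval beyond 1.5-fold, and 0 lower in both OSM pairs with the length trend removed. The causes were not tested.

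Depth limits Plat, Plau and Plaur, which had at most 66 counts in any library, most. No library can be left out, since each condition has 1. No paired analysis was possible because each condition has 1 library.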
